A study of Mus musculus with 8 samples.

Results

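*Nyap1*, *Ica1l*, *Atp10a* and *C2cd2l* are genes with a probe that was lower in embryos of homozygous fathers, 4 of the 20660 genes with a RefSeq symbol on the array. Another gene, *Anp32a*, lay just inside the same limits and was not among those chosen, and for *C2cd2l* only 1 of 2 probes was lower. They were selected on that same difference between father groups in the same 8 embryos, so the father difference of these genes is given as a description and without a test. The selecting values were those of 1 probe for each gene, at a change of at least 2-fold and an adjusted p below 0.01. The 4 genes were covered by 5 of the 55681 distinct probes of the array, since *C2cd2l* had 2 probes and the others had 1 each, and each of the 5 probes was printed as a single spot. All 5 passed the expression filter.

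RNA of single E8.5 mouse embryos was measured on single-colour Agilent expression arrays, with 1 embryo per array and 4 embryos in each group. Embryos of HOM fathers had a sire homozygous for the hypomorphic, ENU-induced *Eed* allele Eedl7Rn5-1989SB (*Eed* hypo/hypo), and embryos of HET fathers had a heterozygous sire (*Eed* hypo/wt). All mothers were wild type on the same C57bl6/129 background, and all 8 embryos were themselves *Eed* hypo/wt, so embryo genotype was shared and wild-type embryos were not part of the comparison. The question was whether lower EED function in the father's germline went with altered expression in offspring of the same genotype. Each group held 2 female and 2 male embryos. The study describes sibling sires, fewer per genotype than there were embryos, so some embryos share a father, and an Oct4GFP transgene was present in the breeding stock. The arrays of each father group lay on a slide of their own, and slide and father therefore cannot be told apart. Whole embryos were used, in which fewer cells of a type and less RNA per cell cannot be told apart. The p-values reflect the spread between these embryos.

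The proteins encoded by these genes act at the plasma membrane or in membrane traffic. NYAP1 is a neuronal phosphoprotein that, once phosphorylated by Fyn, joins PI3 kinase to the WAVE1 complex, which remodels actin. ICA1L resembles the islet autoantigen ICA69 and carries an arfaptin-homology domain, a curved helical domain found in proteins of Golgi and vesicle membranes. ATP10A is a P4-ATPase, a flippase that moves phosphatidylcholine from the outer to the inner leaflet of the plasma membrane, and *Atp10a* lies beside *Ube3a* in a region that holds imprinted genes. C2CD2L, also known as TMEM24, is anchored in the endoplasmic reticulum (ER) and carries phosphatidylinositol to the plasma membrane at contact sites. EED is the subunit of Polycomb Repressive Complex 2 that binds the trimethylated histone tail H3K27me3, the repressive mark the complex lays down.

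Because these genes had been grouped by a shared difference, their promoters were compared. The windows printed here are RefSeq promoter sequences of assembly GRCm38.p6 that span 300 bases around an annotated start, most of them upstream, written along the strand of the gene, and capitals mark the GC box GGGCGG on either strand. They were available for *Nyap1* (chr5:137741119-137741418, minus strand), *Ica1l* (chr1:60043073-60043372, minus strand) and *Atp10a* (chr7:58657952-58658251, plus strand).
Nyap1: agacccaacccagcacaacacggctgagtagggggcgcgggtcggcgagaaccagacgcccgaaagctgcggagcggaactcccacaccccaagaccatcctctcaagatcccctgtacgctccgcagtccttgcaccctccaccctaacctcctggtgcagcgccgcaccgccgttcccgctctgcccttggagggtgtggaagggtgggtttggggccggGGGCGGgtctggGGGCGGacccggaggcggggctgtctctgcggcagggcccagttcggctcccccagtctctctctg
Ica1l: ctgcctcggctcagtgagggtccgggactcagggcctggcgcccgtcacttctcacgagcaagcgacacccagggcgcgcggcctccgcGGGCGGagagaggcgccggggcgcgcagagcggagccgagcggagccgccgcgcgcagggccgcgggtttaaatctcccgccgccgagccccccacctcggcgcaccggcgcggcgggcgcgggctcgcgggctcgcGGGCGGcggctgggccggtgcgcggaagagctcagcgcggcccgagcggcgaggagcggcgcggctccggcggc
Atp10a: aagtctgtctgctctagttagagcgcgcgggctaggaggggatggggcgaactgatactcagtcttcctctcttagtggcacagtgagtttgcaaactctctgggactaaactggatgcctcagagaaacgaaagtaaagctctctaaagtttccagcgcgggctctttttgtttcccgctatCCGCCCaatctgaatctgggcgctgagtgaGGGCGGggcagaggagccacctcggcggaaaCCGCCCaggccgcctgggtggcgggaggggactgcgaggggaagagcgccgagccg

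These windows differed in base composition. The *Ica1l* window was 80.7% G or C with 55 CG dinucleotides, more than in 99.7% of the 32851 promoter windows of the same length. The *Nyap1* window was 69.0% G or C with 23 CG dinucleotides, and that of *Atp10a* was 59.3% with 20, compared with a median of 52.7% and 7 over all windows. A second annotated start of *Nyap1* (chr5:137739753-137740052, minus strand) had only 5 CG dinucleotides at 52.0% G or C. GC boxes were found 2 times at *Nyap1*, 2 times at *Ica1l* and 3 times at *Atp10a*, with 1 at the second *Nyap1* start, while 35.7% of all windows held at least 1. On both strands, TATAAA was found in 13.6% and CACGTG in 7.15% of all windows and in neither case in these 4. CCAAT was found in 37.4% of all windows and among these 4 only at *Atp10a*, where it overlapped a GC box on the opposite strand. These matches are letters within a window and not measured binding.

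*Nyap1* showed the largest difference of the 5 probes. Signals are given on the log2 scale after subtraction of the 75th percentile of each array, so that 0 is that percentile and values cannot be compared between probes. The *Nyap1* signal was -2.44 and -2.91 in the female and -2.11 and -2.49 in the male embryos of HOM fathers. In embryos of HET fathers it was -1.66 and -0.51 in females and -1.003 and -0.50 in males. The groups did not overlap, and 0.45 separated the highest HOM father embryo from the lowest HET father embryo, which was HET father replicate 1. The group means were -2.49 ± 0.33 and -0.92 ± 0.55 (SD, n = 4), a difference of -1.57 or 2.97-fold. The spread was wider among embryos of HET fathers, and the difference lay between -1.82 and -1.43 when each embryo was left out in turn. The probe (A_55_P1999923, NM_175521) was well above background on all 8 arrays, with processed intensities of 210 to 379 and 453 to 971.

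*Ica1l* had the smallest spread of the 5 probes among embryos of HOM fathers. Embryos of HOM fathers were at -2.50 and -2.35 (females) and at -2.32 and -2.47 (males). Embryos of HET fathers were at -0.75 and -1.04 (females) and at -1.43 and -1.22 (males). All 4 HOM father embryos lay within a narrow band, separated by 0.89 from the lowest HET father embryo, the widest gap among the 5 probes. Means were -2.41 ± 0.09 and -1.11 ± 0.29 (SD, n = 4), a difference of -1.30 or 2.46-fold that stayed between -1.40 and -1.18 with any 1 embryo left out. The probe (A_51_P147034, NM_027407) was well above background on all arrays, at intensities of 246 to 327 compared with 538 to 851.

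*Atp10a* was dim. Its signal was -5.15 and -4.82 in females and -5.30 and -5.35 in males of HOM fathers, and -4.02 and -3.50 in females and -4.10 and -4.44 in males of HET fathers. The groups did not overlap, although the gap of 0.37 was the narrowest among the 4 probes that separated them. Means were -5.16 ± 0.24 and -4.02 ± 0.39 (SD, n = 4), a difference of -1.14 or 2.20-fold, with -1.28 to -0.97 when each embryo was left out. The probe (A_51_P320022, NM_009728) was well above background on all HET father arrays but on only 1 of 4 HOM father arrays (replicate 1). Its intensities there were 33.3 to 55.7, compared with 63.0 to 118. With normexp background correction in place of the software's own subtraction, the difference was -0.54. That setting adds an offset of 50 to every signal, which by itself shrinks the log2 difference of so dim a probe. It therefore cannot tell whether the 2-fold difference depends on the background correction.

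The 2 probes of *C2cd2l*, both assigned to NM_027909, disagreed. The brighter probe (A_55_P1989728) was at 3.96 and 4.06 in females and 3.53 and 3.69 in males of HOM fathers. In embryos of HET fathers it was at 3.53 and 3.80 in females and 3.70 and 3.78 in males. The groups overlapped, with means of 3.81 ± 0.25 and 3.70 ± 0.12 (SD, n = 4) and a difference of 0.11, and intensities were 17567 to 26279 and 16532 to 18898. Scaling to the array median turned its sign, to -0.08, while moving the median of all tested probes from -0.02 to -0.21.

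The dimmer *C2cd2l* probe (A_55_P2084890) is the one whose difference had selected the gene. It was at -5.35 and -4.93 in females and -5.02 and -4.66 in males of HOM fathers, and at -3.98 and -3.57 in females and -3.89 and -4.09 in males of HET fathers. Here the groups were separated by 0.57, with means of -4.99 ± 0.28 and -3.88 ± 0.22 (SD, n = 4), a difference of -1.10 or 2.15-fold. It was well above background on 2 of 4 HOM father arrays (replicates 1 and 4) and on all HET father arrays, with intensities of 39.7 to 53.8 and 80.5 to 112. Leaving out each embryo gave -1.21 to -0.98. Normexp background correction gave -0.63, where the added offset of 50 by itself shrinks the difference of a dim probe. The lower value in embryos of HOM fathers was seen on only 1 of the 2 *C2cd2l* probes. Over the 8 embryos the 2 probes had a Pearson correlation of -0.33, and of -0.13 with the father group means removed. The first of these correlations includes the father difference that selected the dimmer probe and is given as a description. For both probes the files give the transcript accession alone, so the part of the gene each covers was not determined here.

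**Figure D1:**
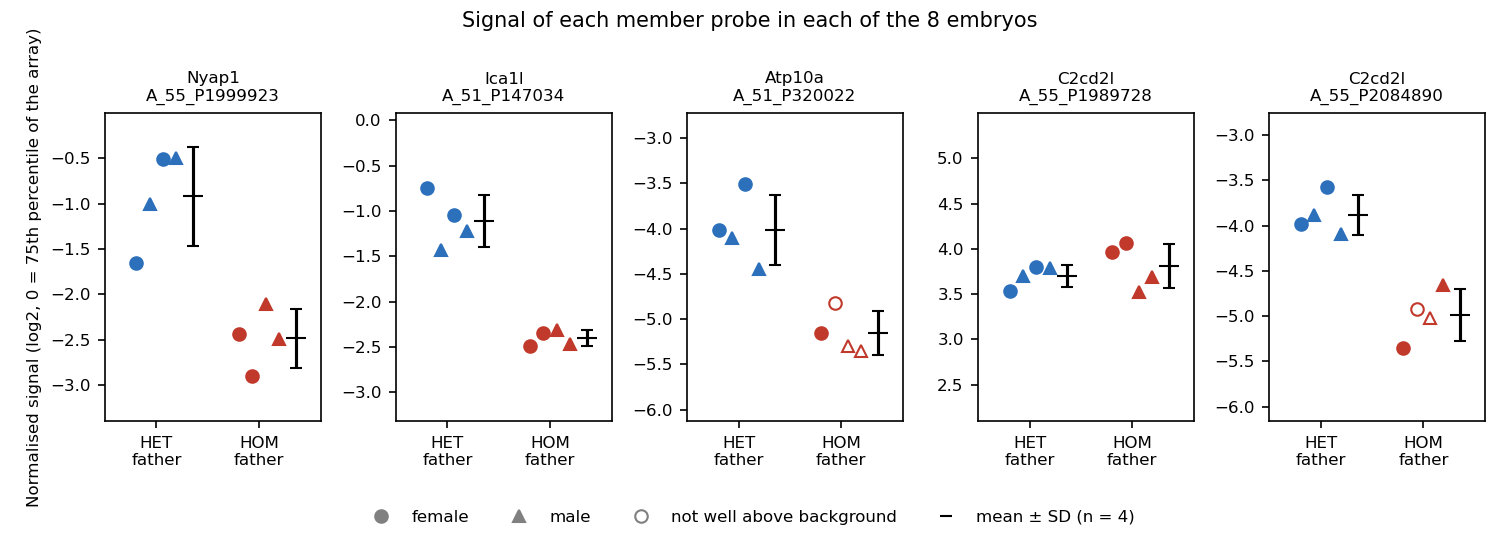
Normalised signal (log2, vertical axis, 0 at the 75th percentile of each array) of each of the 5 probes in the 8 embryos by father genotype, with circles for females, triangles for males, open symbols where the spot was not well above background, and bars for mean ± SD (n = 4). All panels span the same range, and in 4 of them every HOM father embryo lies below every HET father embryo, while the groups overlap for the brighter *C2cd2l* probe.

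In total, 4 of the 5 probes had every embryo of a HOM father below every embryo of a HET father, a pattern shown by 13.0% of all 29717 tested probes. At the selecting limits, 8 probes (0.0269% of those tested) were lower in embryos of HOM fathers, of which 5 had a RefSeq symbol. These 5 were 1 probe of each of *Nyap1*, *Ica1l*, *Atp10a* and *C2cd2l* and a probe of *Anp32a*, just inside the limits at -1.02. The remaining 3 had no RefSeq symbol. Among probes with a RefSeq symbol and an adjusted p below 0.01, the next outside the fold limit were *Zfp974* (-0.85), *Ryr1* (-0.78), *Zfp383* (-0.73) and *Nol3* (-0.70). As these limits were the rule of selection, nothing is read from the counts.

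**Figure D2:**
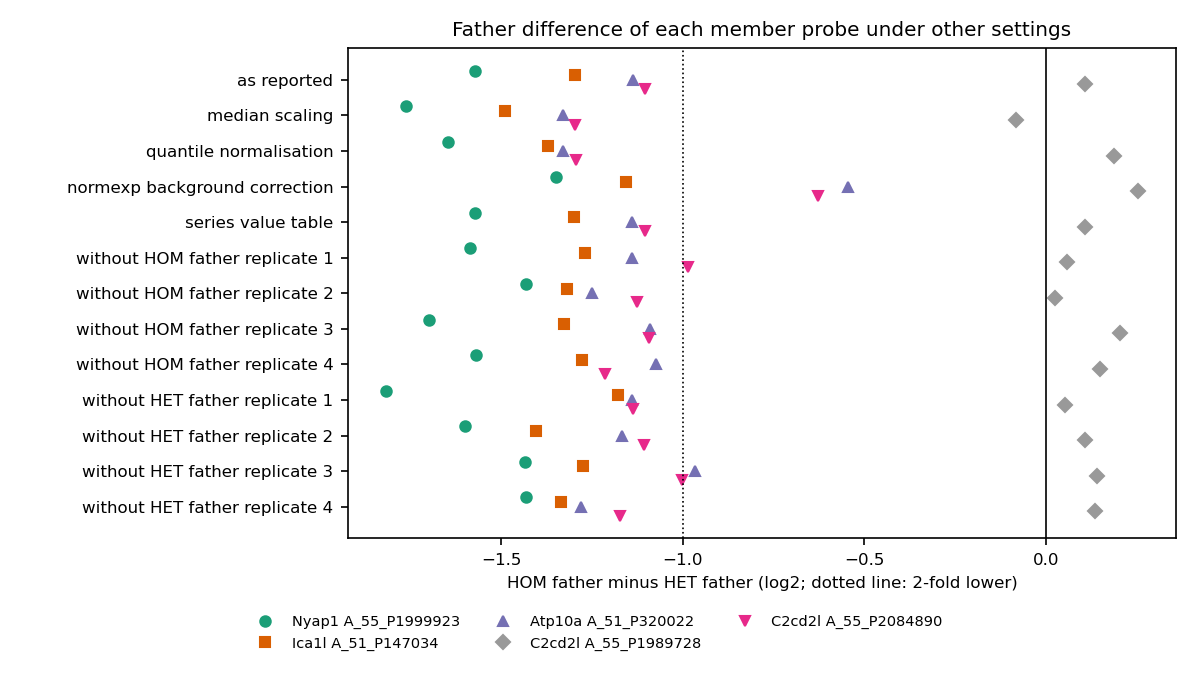
Difference between father groups (HOM minus HET father, log2, horizontal axis) of each of the 5 probes as reported, under other scalings, background correction and source of values, and with each embryo left out, with the dotted line at 2-fold lower. *Nyap1* and *Ica1l* stay beyond 2-fold in every row, whereas *Atp10a* and the dimmer *C2cd2l* probe move to -0.54 and -0.63 with normexp background correction. The offset of 50 added in that row by itself shrinks differences of dim probes. Both also fall just short of 2-fold with 1 embryo left out. *Atp10a* is at -0.97 without HET father replicate 3, and the dimmer *C2cd2l* probe at -0.98 without HOM father replicate 1.

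Across the 8 embryos, the 4 lower probes followed each other with Pearson correlations between 0.77 and 0.90. This is given as a description, since the choice of these probes by father separates the groups in each of them. With the father group means removed, the correlations between the same probes ran from -0.44 (*Nyap1* with *Ica1l*) to 0.42 (*Atp10a* with the dimmer *C2cd2l* probe). Within a father group, an embryo that was low for 1 of these genes was thus not regularly low for the others.

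Embryo sex had played no part in the choice of these genes and was balanced over the slides, so it was tested. Sample identifiers begin with a number of unstated meaning, which was shared by both males of HOM fathers, and by 1 female and 1 male of HET fathers (replicates 1 and 2). Taken as a random block, a setting chosen after seeing the data, it left 0 of the 5 probes called by sex or by interaction. None of the 5 probes passed the test by sex (0 at a limma adjusted p below 0.05, 1 at an unadjusted p below 0.05), whereas 36 of 29717 tested probes did (0.121%), with 1552 at an unadjusted p below 0.05. *Atp10a* females were above males by 0.43 ± 0.15 (SE), on a probe not well above background in 3 of 4 embryos of HOM fathers. The value was 0.12 with normexp background correction, whose offset shrinks differences of dim probes. In both father groups both *Atp10a* females lay above both males, but the difference did not pass the adjustment (limma unadjusted p = 0.0229, adjusted p = 0.914). How many of all tested probes show such an order was not counted, so nothing is read from it. For *Nyap1* the difference of females minus males was -0.35 ± 0.27, for *Ica1l* 0.20 ± 0.13 and for the brighter *C2cd2l* probe 0.17 ± 0.12 (SE), each with a limma adjusted p of 0.914. The dimmer *C2cd2l* probe was at -0.04 ± 0.17 (limma adjusted p = 0.977).

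Within each sex, the father difference of *Nyap1* was -1.59 in females and -1.55 in males. It was -1.53 and -1.07 for *Ica1l*, -1.22 and -1.05 for *Atp10a*, and -1.36 and -0.85 for the dimmer *C2cd2l* probe. In both sexes these 4 probes were thus lower in embryos of HOM fathers, a direction that the lack of overlap between the groups fixes. The brighter *C2cd2l* probe was at 0.35 in females and -0.13 in males, and its interaction of father and sex was 0.48 ± 0.17 (SE, limma unadjusted p = 0.0300, adjusted p = 1.00). The interaction term passed a limma adjusted p below 0.05 for 0 of the 5 probes, with 1 at an unadjusted p below 0.05, and for 19 of all tested probes (0.0639%), with 1341 at an unadjusted p below 0.05.

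**Figure D3:**
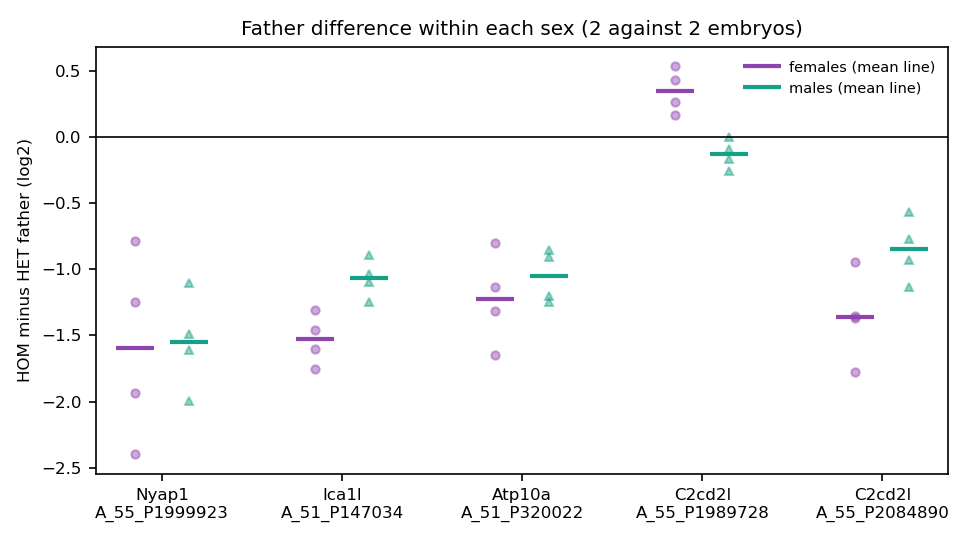
Difference between father groups (HOM minus HET father, log2, vertical axis) within female and within male embryos for each of the 5 probes. Lines are the differences of means and points are the 4 pairs of 1 HOM and 1 HET father embryo within a sex, which share embryos and are not replicates. The lines of *Nyap1* nearly coincide at -1.59 and -1.55, and those of the brighter *C2cd2l* probe lie on opposite sides of 0.

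The families and partners of these 4 proteins were then examined, 58 genes listed with earlier results of these data known. A probe was matched for 55 and tested for 48, each gene being represented by its brightest tested probe. By father, 2 genes were lower and 4 were higher in embryos of HOM fathers at a limma adjusted p below 0.05, compared with 8.69% lower and 12.3% higher among all tested probes. Under median scaling, which moved the median of all probes to -0.21, 20 were lower and 4 higher. The shares of all tested probes called under that scaling were not counted, so nothing is read from these 2 counts. The median difference of the 48 genes was -0.02, and that of all tested probes was also -0.02. The medians of the 4 lists lay between -0.04 and 0.05.

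Among the PI3 kinase and WAVE1 partners of the NYAP proteins, 1 of 13 tested genes was lower. This was *Rac1*, the small GTPase that activates the WAVE complex, with a difference of -0.15 ± 0.05 (SE, limma adjusted p = 0.0497) and -0.21 on its second probe (limma adjusted p = 0.0389). The *Rac1* call held under only 4 of 18 alternative settings. No probe was matched for the paralogue *Nyap2* or for *Myo16*. The second probe of *Abi2*, a subunit of the WAVE complex, was higher by 0.41 (limma adjusted p = 0.0288), while the brightest did not change detectably.

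Of the 6 arfaptin-homology genes and their GTPase partners, 1 changed. *Arfip1*, which encodes an arfaptin of the trans-Golgi, was at 0.46 ± 0.07 with HOM fathers and at -0.11 ± 0.04 with HET fathers (SD, n = 4), a rise of 0.57 (limma adjusted p = 0.000452). *Ica1*, the closest relative of *Ica1l*, was at 0.05 ± 0.05 (SE, limma adjusted p = 0.479) and at -0.11 on its second probe (limma adjusted p = 0.573).

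Of the P4-ATPases other than *Atp10a*, 14 genes of which 10 were tested, 3 were higher in embryos of HOM fathers and 0 were lower, while 12.3% of all tested probes were higher. *Atp8b4* was at -2.80 ± 0.15 with HOM fathers and at -4.11 ± 0.13 with HET fathers (SD, n = 4), higher by 1.31 (limma adjusted p = 0.000195). *Atp8b2* was higher by 1.25 ± 0.11 (SE, limma adjusted p = 0.000364) and *Atp8a1*, a flippase of phosphatidylserine, by 0.88 ± 0.10 (SE, limma adjusted p = 0.00115). These 3 calls held under all 18 alternative settings. The rises of *Atp8b4* and *Atp8b2* also passed 2-fold at an adjusted p below 0.01. With normexp background correction, whose offset shrinks differences of dim signals, they were 0.74 and 0.73 and did not reach 2-fold. For *Atp9a* the brightest probe was at -0.03 (limma adjusted p = 0.729) and the second was higher by 0.65 (limma adjusted p = 0.000421). The paralogue *Atp10b* had 1 probe that was too dim to be tested and *Atp10d* had no matched probe. *Tmem30a*, which encodes the subunit that most P4-ATPases need to leave the ER, was at 0.13 ± 0.07 (SE, limma adjusted p = 0.214).

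The genes for lipid transfer at contacts between ER and plasma membrane, of which 17 were tested, had a median difference of -0.04. *C2cd2*, the paralogue of *C2cd2l*, was at 0.03 ± 0.06 (SE, limma adjusted p = 0.725).

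**Figure D4:**
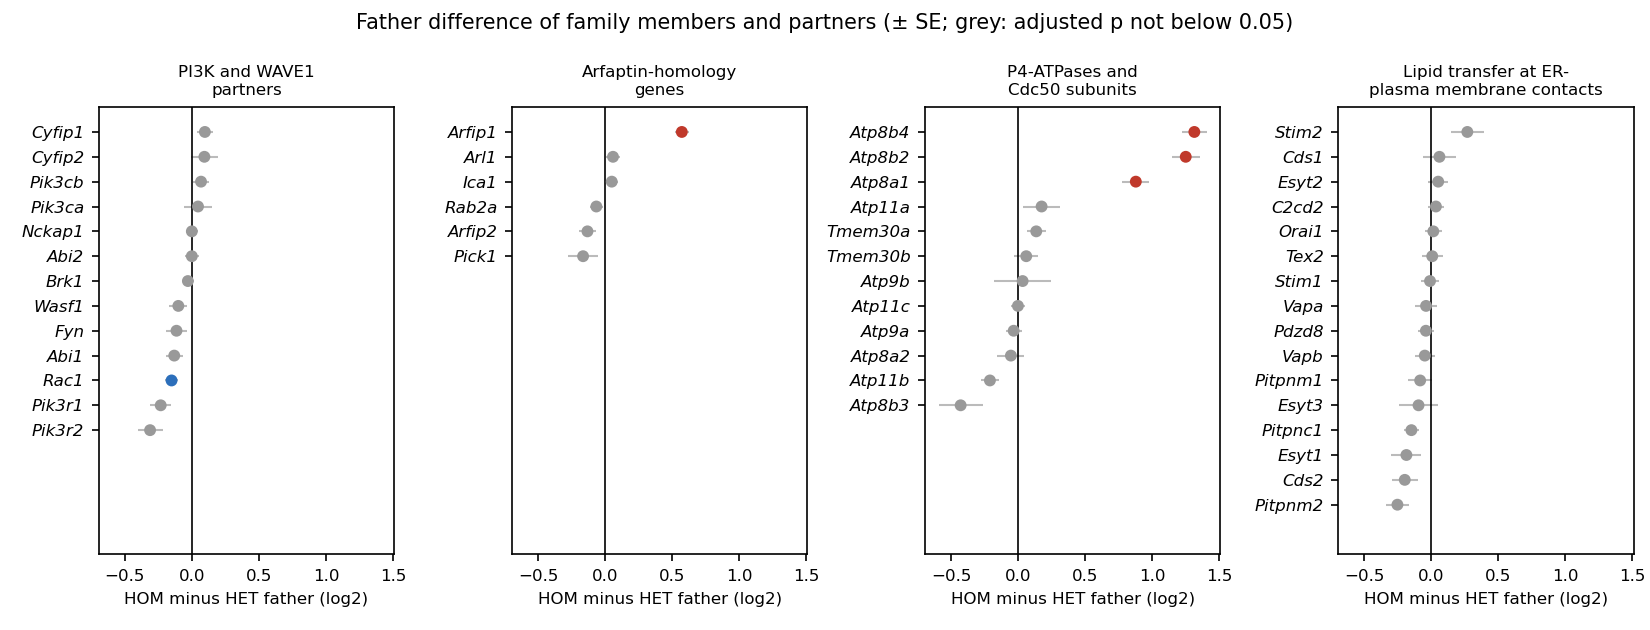
Difference between father groups (HOM minus HET father, log2, horizontal axis, ± SE) of tested genes in the 4 lists of family members and partners (1 tested gene is not shown), with blue for lower and red for higher at a limma adjusted p below 0.05 and grey otherwise. Most points lie near 0, and *Atp8b4*, *Atp8b2* and *Atp8a1* stand at 1.31, 1.25 and 0.88.

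To see whether genes beside these 4 differed too, the 5 nearest protein-coding genes on each side were taken from the RefSeq table. Of 40 such genes, 34 were tested, with 5 lower and 2 higher in embryos of HOM fathers and a median difference of -0.06, beside 8.69% lower and 12.3% higher among all tested probes. Median scaling gave 15 lower, a count for which the share of all tested probes under that scaling was not taken. None reached 2-fold. Beside *Nyap1* on chromosome 5, 3 of 10 genes were lower. *Tsc22d4* and *Ppp1r35*, the next genes on 1 side, fell by a log2 difference of -0.36 ± 0.05 and -0.41 ± 0.05 (SE, limma adjusted p of 0.00373 and 0.00151), and both calls held under all 18 alternatives. The other probes of *Tsc22d4* were at -0.23 and -0.38 and did not pass. *Sap25*, which encodes a protein of the Sin3 corepressor, was at -0.23 ± 0.06 (SE, limma adjusted p = 0.0304), a call kept under 8 of 18 alternatives. *Agfg2*, the nearest gene on the other side, did not pass the test.

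Beside *Ica1l* on chromosome 1, 0 of the 9 tested genes passed by their brightest probe. Beside *Atp10a* on chromosome 7, 6 genes were tested. The GABA receptor gene *Gabrg3* was higher by 0.76 ± 0.18 (SE, limma adjusted p = 0.0235), from a dim probe that was well above background on 3 HOM and 1 HET father arrays, and the call held under 8 of 17 alternatives. *Ube3a*, the ubiquitin ligase gene next to *Atp10a*, was at -0.16 ± 0.06 (SE, limma adjusted p = 0.111), and the imprinted *Snrpn* and *Ndn* were at -0.06 and -0.21 (limma adjusted p of 0.592 and 0.138). On chromosome 9, *Hinfp*, a regulator of histone H4 genes beside *C2cd2l*, was at -0.20 ± 0.05 (SE, limma adjusted p = 0.0292, kept under 10 of 18 alternatives). *Abcg4*, which encodes a sterol exporter, was at -0.49 ± 0.11 (SE, limma adjusted p = 0.0174, kept under 16 of 18). Its second probe, at -0.23, did not pass (limma adjusted p = 0.255). The probes of *Nlrx1*, a mitochondrial innate immune gene, disagreed, with 0.49 on the brighter (limma adjusted p = 0.0176) and -0.45 on the dimmer (limma adjusted p = 0.0232).

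**Figure D5:**
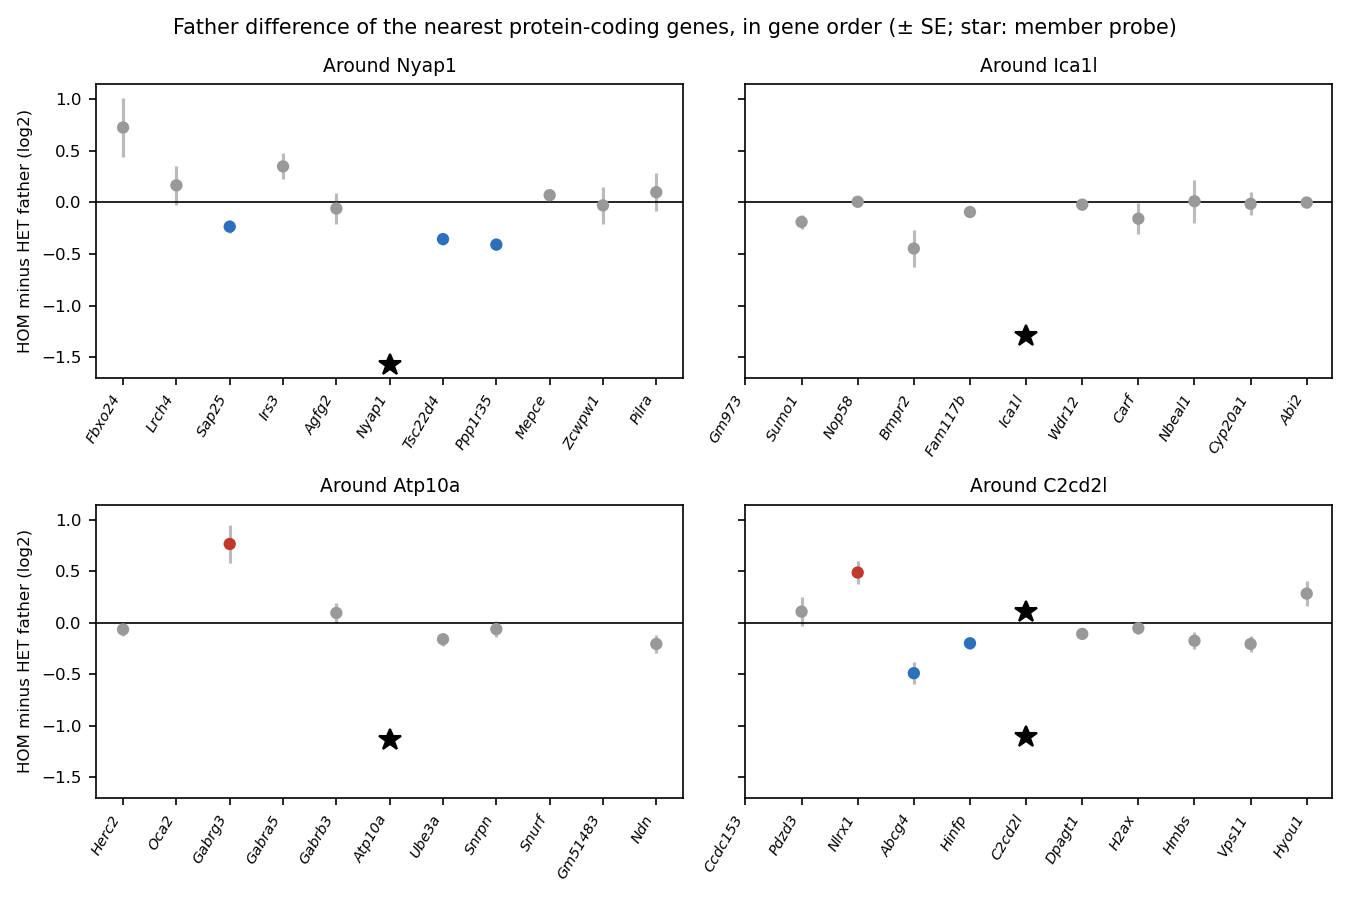
Difference between father groups (HOM minus HET father, log2, vertical axis, ± SE) of the 5 nearest protein-coding genes on each side of each gene, in order along the chromosome, with blue for lower and red for higher at a limma adjusted p below 0.05, grey otherwise, stars for the probes of *Nyap1*, *Ica1l*, *Atp10a* and *C2cd2l*, and no point for genes not tested. No neighbour falls as far as the lower star of its panel.

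The genes whose signal was most like that of each gene over the 8 embryos were sought among 19014 tested probes with a RefSeq symbol. For *Nyap1* these were *Lsm14b* (Pearson r = 0.99), *Galnt4* (r = 0.99) and *Vps72* (r = 0.99), with r of 0.98, 0.93 and 0.94 after the father group means were removed. For *Ica1l* they were *Lamtor2*, *Zgpat* and *Sf3b6* (r of 0.99, 0.98 and 0.98), and 0.91, 0.78 and 0.86 without the group means. For *Atp10a* they were *Snrnp40*, *Ciapin1* and *Nhej1* (r of 0.995, 0.99 and 0.99), and 0.98, 0.97 and 0.95 without the group means. For the brighter *C2cd2l* probe they were *Slc34a3*, *Atraid* and *Vil1* (r of 0.98, 0.97 and 0.96), and 0.98, 0.97 and 0.97 without the group means. The dimmer *C2cd2l* probe, the one that was lower in embryos of HOM fathers, was not compared in this way. The lists did not share a gene. As the highest of this many correlations over 8 embryos, they are given as a description only.

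Markers of the cell types that a whole embryo or its attached tissue could hold were set beside these values. Of 46 markers, 40 were tested, with 3 lower and 2 higher in embryos of HOM fathers and a median of -0.08, again beside 8.69% lower and 12.3% higher among all tested probes. Median scaling gave 14 lower, again without a share of all tested probes under that scaling. Of the neural markers 13 of 16 were tested and 0 were lower, while *Nhlh1* and *Elavl4*, genes of early neurons, were higher by 1.09 and 0.85 (limma adjusted p of 0.00162 and 0.000681), although the second *Elavl4* probe was at -0.17 (limma adjusted p = 0.595). The brightest *Sox1* probe was at -0.16 (limma adjusted p = 0.197), but its second probe was higher by 0.42 (limma adjusted p = 0.0209). The summed level of the neural list was 4.35 to 4.56 with HOM fathers and 4.59 to 4.72 with HET fathers, without overlap. Of all tested probes, 13.0% were likewise lower without overlap. The brightest neural markers, *Sox3* (-0.29) and *Nes* (-0.34), weigh most in the sum and did not pass (limma adjusted p of 0.0887 and 0.0768). Summed levels also lay apart for PI3 kinase and WAVE1 partners (6.20 to 6.24 and 6.29 to 6.30) and, upward, for P4-ATPases with Cdc50 subunits (4.83 to 4.86 and 4.72 to 4.78). The *Ica1l* neighbours lay apart downward (6.62 to 6.73 and 6.75 to 6.82), as did all neighbours summed together (7.59 to 7.69 and 7.70 to 7.71). The share of probes higher without overlap was not counted, nor was any share for sums, so nothing is read from these separations. The trophoblast gene *Gcm1* was at -1.07 ± 0.25 (SE, limma adjusted p = 0.0217) on its brightest probe, while its other 2 tested probes, at -0.99 and -0.35, did not pass (limma adjusted p of 0.0527 and 0.101). *Prl3d1* and *Ascl2* were at 1.88 and 0.61 and did not pass either (limma adjusted p of 0.208 and 0.612). *Prl3d1* ranged widely in both groups, from -1.05 to 1.97 with HOM fathers and from -3.16 to 0.44 with HET fathers. *Ascl2* ranged from -1.98 to 1.67 with HOM fathers and from -1.62 to -1.29 with HET fathers. The median of the list, 0.24, rests partly on these 2 genes. The summed trophoblast level was 4.03 to 4.73 compared with 4.48 to 5.11 over 4 of 6 markers, and *Tpbpa* was too dim to be tested.

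The yolk sac gene *Apoa1* was at -0.41 (limma adjusted p = 0.0139), 1 of 8 markers, with summed levels of 8.85 to 9.17 and 9.04 to 9.12. The summed level of the 7 erythroid markers was 9.26 to 9.63 with HOM fathers and 9.62 to 9.68 with HET fathers. No endothelial marker passed (0 of 6), and the summed level was 3.73 to 4.07 compared with 3.89 to 4.01. Of the decidua markers 2 of 3 were tested and none passed, but *Prl8a2* ranged widely between embryos, from 0.29 to 4.45 with HOM fathers and from -3.99 to 1.88 with HET fathers (limma adjusted p = 0.215). The part of these tissues in the differences of *Nyap1*, *Ica1l*, *Atp10a* and *C2cd2l* was not tested.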

How the data were processed

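RNA of 8 single E8.5 embryos (0.2 µg per labelling) was measured on single-colour arrays. The authors deposited scanner tables from Agilent Feature Extraction (version 11.0.1.1, per the submitters' processing notes) that hold, for each spot, background-subtracted and spatially detrended processed intensities on a linear scale, median and background intensities, and other values that flag spots. The deposited table of the series holds the same processed intensities in rounded form (largest relative difference 0.497%). Gene names and promoters are from RefSeq (GRCm38.p6), matched by unversioned accession for 27235 of 55681 probes.

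Control and outlier-flagged spots were left out, and no spot was saturated. Signals were taken as log2 minus the 75th percentile of each array (intensities of 1334 to 1633). Probes were tested (29717, 53.4%) if at least 4 arrays had them well above background and not under the 20th percentile of the array. Per array, 51.9% to 60.8% of spots were well above background, and the number of arrays limits the precision. Arrays correlated at 0.988 to 0.993 within and 0.982 to 0.992 between groups, across probes, which are not independent replicates.

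limma 3.58.1 in R 4.3.3 (lmFit and eBayes, two-sided) was fitted to all tested probes with Benjamini-Hochberg adjustment, by father without covariates, by sex with father as covariate, and with their interaction. The procedure was tested on simulated data. The brightest tested probe stands for a gene in a list, and a summed level is log2 of the sum of those probes' linear signals. Each probe of the 4 genes, each list or neighbouring gene with an adjusted p below 0.05, the paralogues, and the 3 most correlated genes are named, and other genes were chosen after their values were seen. The results for 2 of the list genes are counted but not reported here. The genes and lists were chosen with earlier results of these data known. Groups and sex came from the labels. Alternatives were median and quantile scaling, normexp background correction (offset 50, on median spot signals, as mean signals were not used here), the deposited series table, other filters and variance models, sex as a covariate, blocks, and leaving out each embryo.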

Additional observations from a re-analysis of the deposited data

How the results depend on the processing

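The father differences of *Nyap1* and *Ica1l* moved by less than the SD among embryos of HET fathers under the 12 alternatives that could change them. They ran from -1.82 to -1.35 and from -1.49 to -1.16. For *Ica1l* the move exceeded the SD of 0.09 among embryos of HOM fathers. The brighter *C2cd2l* probe ran from -0.08 to 0.25. *Atp10a* and the dimmer *C2cd2l* probe moved with normexp background correction, to -0.54 and -0.63, and were not tested where all arrays had to be well above background. The normexp offset of 50 by itself shrinks differences of probes this dim. Leaving out 1 embryo gave -1.82 to -1.43 (*Nyap1*), -1.40 to -1.18 (*Ica1l*), -1.28 to -0.97 (*Atp10a*), 0.02 to 0.20 and -1.21 to -0.98 (*C2cd2l*). The count of these probes called by sex or by interaction stayed at 0 under 17 and 16 alternatives.

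The 4 higher related genes were 4 in number under all 18 alternatives. Median scaling, which moved all probes down, gave 20 lower related genes (2 as reported), 15 lower neighbours (5) and 14 lower markers (3). The share of all tested probes called lower under that scaling was not counted, so these counts have no share to be compared with. Lower related genes numbered 5 with trended and robust variance, and 1 with no filter or with the identifier number as a random block (consensus correlation 0.302). Higher neighbours, 2 as reported, were 1 with quantile scaling, normexp, the filter for all arrays well above background or the random block, and 0 with no filter, which also left 2 lower neighbours and 0 lower markers. Leaving out 1 embryo gave 1 to 2 lower and 4 higher related genes, 3 to 6 lower and 1 to 3 higher neighbours, and 1 to 4 lower and 2 to 3 higher markers. Lower neighbours numbered 3 without HET father replicate 2, 3 or 4, and higher neighbours 1 without HOM father replicate 4 or HET father replicate 2 or 4. Lower related genes numbered 1 without HOM father replicate 3 or 4 or HET father replicate 2 or 4, and lower markers 1 without HET father replicate 3. The cause of these changes was not tested.

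The deviations of same-numbered embryos correlated at 0.19, -0.09, -0.13 and 0.15 for replicates 1 to 4 (29691 probes). For replicates 1 and 4 the same-numbered embryo was also the best match in the other father group. Those 2 pairs were of the same sex and the other 2 of opposite sex. Whether the replicate numbers mark a pairing therefore cannot be told from these correlations. With the replicate number as a block, 2 lower neighbours, 1 higher neighbour and 0 lower markers were called, while the related genes stayed at 2 lower and 4 higher.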
